A study of Drosophila melanogaster with 15 samples.

Results

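Chromosome 4 is the smallest autosome of Drosophila melanogaster. The genes described here are those of the deposited count table that the annotation of the dm6 assembly places on chromosome 4, leaving out RpS3A, ATPsynbeta, eIF4G1 and ey. They number 83 of the 8990 genes in the table, and they comprise 72 protein-coding genes, 7 noncoding RNA genes and 4 pseudogenes. All 83 passed the filter on low counts.

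Chromosome 4 is known for carrying active genes inside chromatin that has the marks of heterochromatin. Heterochromatin protein 1a and the histone methyltransferase eggless (egg) act along it, and the protein encoded by Pof coats its genes and binds their nascent RNA. It hardly recombines, transposon remnants lie between and within its genes, and in the brain it supplies transcription factors, axon guidance receptors and synaptic proteins.

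RNA was measured in brains of female larvae late in the third instar, raised at 25 ºC, with 5 groups of 3 libraries and 3 brains in each library. Oregon is a wild-type laboratory strain whose age was not given. CDXY larvae were C(1)DX/Y, with 2 joined X chromosomes and a Y, and CDXX larvae were C(1)DX/X, with 3 copies of X. C2L larvae carried the compound arm C(2L)SH1. The T2L label was read by elimination as C(2L)SH1/+, which gives 3 copies of the arm 2L. Dissection was on day 5 after egg laying for both controls, CDXY and C2L, and on day 8 for both trisomies, so age and genotype cannot be told apart in the comparison of either trisomy with its control. What chromosome 4 each stock carried was not stated. Replicates were collected on different days and are named by their batch label, 4, 5 or 6.

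Libraries held 22.9 to 28.3 M counted reads. All 14 neuronal, 12 glial and 10 neuroblast markers were measured, and none was at 0 in any group. No measured marker of muscle, hemocytes, fat body or salivary gland was at 0 either. The presence of markers therefore does not tell brain from other tissues and is no check of the brain label. Brain is a mixture, and fewer cells of a type and less RNA per cell cannot be told apart in any value below.

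The chromosome 4 genes were long and well expressed. Their median span was 9271 bp, against 2981.5 bp for the 5690 tested genes of the arms 2R, 3L and 3R, and 83.1% of them held an annotated transposon within the span, against 8.49%. The median level was 29.9 CPM (read counts scaled to library size) per kb of exon, against 14.6 for those arms. The highest levels per kb were those of ND-49 (113 CPM per kb), a subunit of respiratory complex I, CaMKII (105 CPM per kb), a calcium-dependent kinase of synapses, gw (103 CPM per kb), which acts in silencing by microRNAs, and Arf4 (96.1 CPM per kb), a small GTPase of membrane traffic. The lowest were those of bt (0.414 CPM per kb), the giant muscle protein projectin, and lncRNA:CR44023 (0.899 CPM per kb). Exons of 28 of the 83 genes overlap those of a neighbour, and since the strand used in counting was not given, their values are uncertain where that is noted.

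Together the 83 genes took between 0.930% and 1.48% of a library's counted reads. The share was 1.14% to 1.28% in Oregon, 1.22% to 1.31% in CDXY, 1.22% to 1.48% in C2L and 1.26% to 1.36% in T2L. In CDXX it was 0.930% to 1.06%, below every library of the other groups. These are shares of all counted reads, which in CDXX include those of the third X. In CDXX against Oregon the median log2 fold change was -0.11 on chromosome 4 and -0.09 on the arms 2R, 3L and 3R. The part of the third X in the lower share was not tested.

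**Figure D1:**
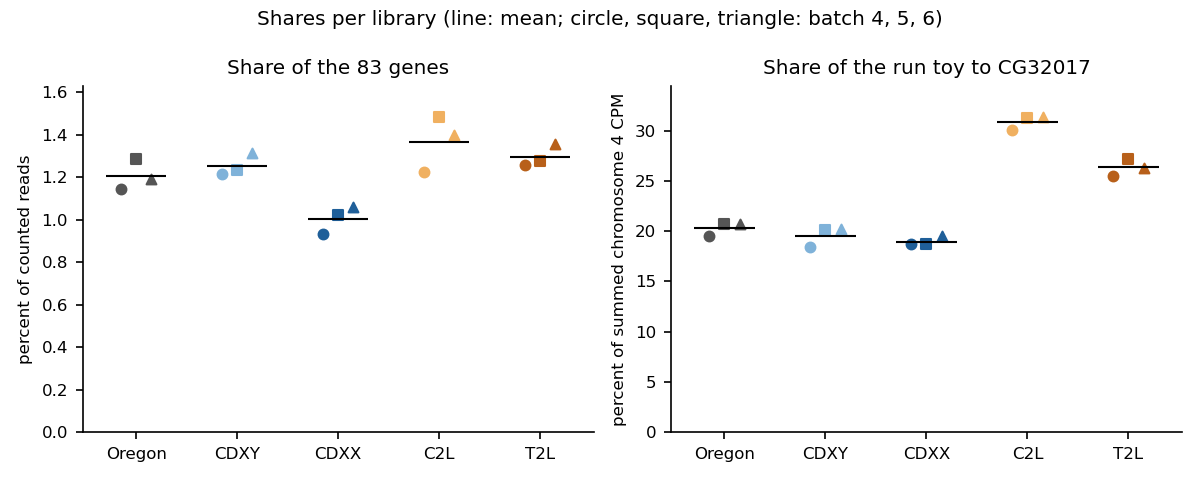
Share of counted reads in the 83 chromosome 4 genes (left) and share of their summed CPM in the stretch from toy to CG32017 (right), per library, with the mean of each group as a line. The CDXX libraries lie lowest on the left at 0.930% to 1.06% of all counted reads, those of the third X included. On the right the C2L libraries lie at 30.1% to 31.3% and the T2L libraries at 25.5% to 27.2%.

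The most compact pattern on the chromosome was in C2L brains. In C2L against Oregon, which compares the control stock of the 2L trisomy with wild type, 10 of the 83 genes rose and 3 fell (edgeR quasi-likelihood test, adjusted p under 0.05). That is 12.0% higher and 3.61% lower, where 0.902% of all 8981 genes tested were higher and 1.24% lower, or 2.14% in either direction. On the arms 2R, 3L and 3R the percentages were 0.773% and 1.32%. Of the 10 genes that rose, 9 lie in 1 stretch of 12 neighbouring members near the distal end, from toy to CG32017 (chromosome 4, 989725 to 1162158, 172 kb). The stretch was chosen after its values were seen, so its counts are a description and carry no test.

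From left to right the stretch holds toy, PlexA, CG11076, CaMKII, Zyx, apolpp, Actbeta, sv, Cals, Arf4, CG11155 and CG32017, with ATPsynbeta, left out by the rule, between CG11076 and CaMKII. Its median log2 fold change in C2L against Oregon was 0.76, and the medians within batches 4, 5 and 6 were 0.56, 0.81 and 0.74. The 64 members before toy had a median of -0.02, with 0 higher and 3 lower, and the 7 members after CG32017 had a median of 0.17, with 1 higher, the kinase gene Dyrk3. In runs of 10 neighbouring genes, the most that were called higher was 7 on chromosome 4, against at most 4 on any other arm, while in C2L against CDXY it was 6 on chromosome 4 and 6 on the X. The stretch took 30.1% to 31.3% of the summed chromosome 4 CPM in C2L and 19.5% to 20.7% in Oregon.

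CG32017, a gene with no role given here, had the largest rise of the stretch (chromosome 4, 1137830 to 1162158, minus strand). Its levels in Oregon were 116, 179 and 149.9 CPM in batches 4, 5 and 6, and in C2L 363, 427 and 411 CPM. Every C2L library lay above every Oregon library. The log2 fold change was 1.44 ± 0.16 (SE), a 2.71-fold rise (edgeR adjusted p = 0.000237).

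PlexA encodes a receptor for semaphorins that steers axons (chromosome 4, 1009895 to 1027101, minus strand). It stood at 354, 388 and 349 CPM in Oregon and at 616, 849 and 716 CPM in C2L. The groups did not overlap, and the log2 fold change was 1.00 ± 0.14 (edgeR adjusted p = 0.00137). The Pax6 gene toy, a regulator of eye and brain development (989725 to 1007922, plus strand), stood at 142, 140.2 and 121 CPM in Oregon and at 203, 319 and 251 CPM in C2L. Its groups did not overlap either, with a log2 fold change of 0.94 ± 0.15 (edgeR adjusted p = 0.00385).

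CG11076 is the neighbour of PlexA (1029711 to 1031757, minus strand). It had 65.6, 66.9 and 79.7 CPM in Oregon and 149, 125 and 139 CPM in C2L, a log2 fold change of 0.96 ± 0.10 (edgeR adjusted p = 9.14e-05). Its exons share 13.0% of their bases with the opposite strand of ATPsynbeta. CaMKII (1035288 to 1053703) had means of 389.7 ± 52.5 CPM in Oregon and 735 ± 139 CPM in C2L (SD, n = 3), a log2 fold change of 0.92 ± 0.16 (edgeR adjusted p = 0.00763). Zyx, a LIM protein of cell adhesions (1057365 to 1065001), was tight in Oregon at 159 ± 1.25 CPM and stood at 303 ± 37.8 CPM in C2L (SD, n = 3), a log2 fold change of 0.93 ± 0.10 (edgeR adjusted p = 0.00011). For each of these 3 genes the groups did not overlap.

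The other called members of the stretch rose less. Cals, which encodes the neuronal adhesion protein calsyntenin, had a log2 fold change of 0.60, CG11155, a kainate-type glutamate receptor gene, one of 0.58, and Arf4 one of 0.52. Their adjusted p-values, 0.0319, 0.0484 and 0.0482 in edgeR, were each lost on leaving out single libraries, and that of Arf4 was 0.0672 with batch as a block. That of CG11155 was also lost with factors from 2R, 3L and 3R (0.0527). Dyrk3, with a log2 fold change of 0.66 (edgeR adjusted p = 0.0174), was also lost without any of 4 libraries.

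The remaining 3 members of the stretch did not pass the test in C2L against Oregon. Actbeta, an activin-type ligand, had a log2 fold change of 0.57 (edgeR adjusted p = 0.0859), which passed with batch as a block (adjusted p = 0.0214), in DESeq2 (adjusted p = 0.0149) and without C2L 4 (adjusted p = 0.0168). apolpp, the precursor of the circulating lipid carrier lipophorin, had a log2 fold change of 0.46. The Pax2 gene sv went the other way at -0.50, with 10.0 to 11.4 CPM in Oregon and 6.47 to 8.65 CPM in C2L. The stretch is therefore not raised at every gene, and 7 of its 12 members share exonic bases with a neighbour.

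Single libraries moved the count for the stretch. Between 6 and 9 of the 12 members were called higher when any 1 library of C2L or Oregon was left out, with 6 without C2L 5, C2L 6, Oregon 4 or Oregon 6. With only the 6 libraries compared in the fit, 4 were called (PlexA, CG11076, Zyx and CG32017), while the median stayed at 0.75. Of the markers of other tissues and stages, 0 of 14 muscle, 0 of 12 hemocyte, 0 of 8 fat body, 0 of 6 salivary gland and 0 of 20 ecdysone stage genes were called in C2L against Oregon by edgeR, which for lists of these sizes is near the 2.14% of all genes. The median log2 fold changes of the fat body and salivary gland lists were 1.15 and 0.66, and the part of such RNA in the result was not tested. Of 12 glial genes 1, wrapper, was lower.

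**Figure D2:**
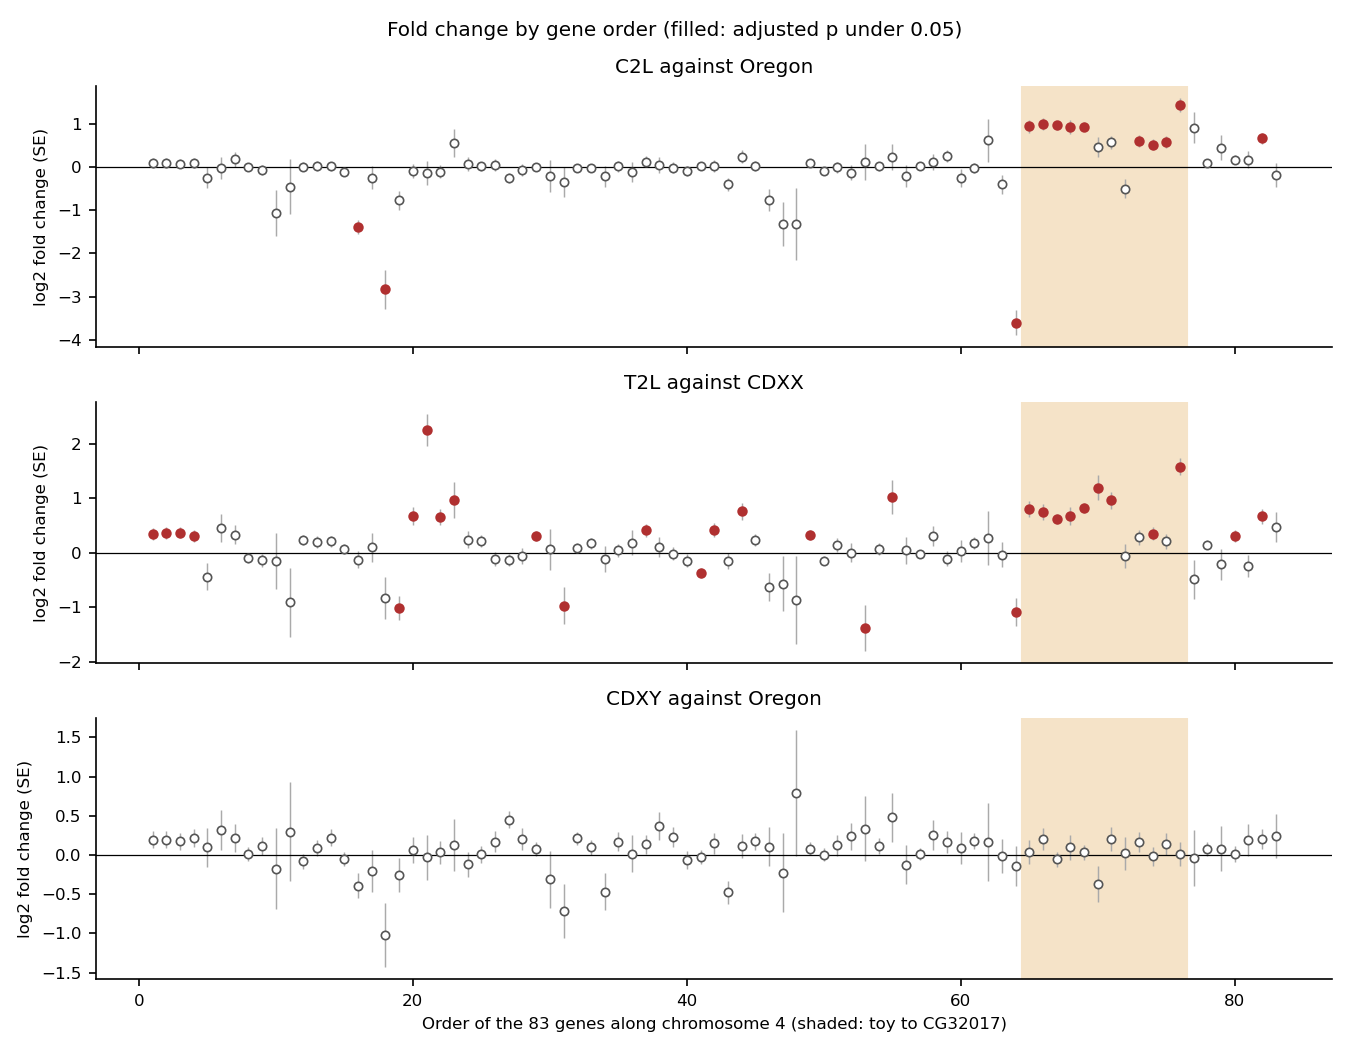
Log2 fold changes with standard errors of the 83 genes in their order along chromosome 4, in C2L against Oregon, T2L against CDXX and CDXY against Oregon, with filled points for adjusted p under 0.05 and shading for the 12 members from toy to CG32017. In the shaded stretch 9 genes are called higher in C2L against Oregon and 9 in T2L against CDXX, and 0 in CDXY against Oregon. Of all genes tested, 0.902%, 19.6% and 0.323% were called higher in these comparisons, so the counts are not alike.

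T2L brains, read as carrying 1 copy of the compound arm of C2L, also had higher levels at some genes of the stretch. In T2L against Oregon 8 of the 83 genes changed, 7 higher and 1 lower, where 13.0% of all genes tested were called, 10.3% higher and 2.68% lower. On chromosome 4 that is 9.64%, with 8.43% higher. The share of all genes includes the trisomic arm 2L, and on 2R, 3L and 3R 5.15% were called, 1.93% higher. Of the 12 members of the stretch 5 rose, of which PlexA, CG11076, Zyx and CG32017 were called in C2L against Oregon and apolpp was not, and the median log2 fold change was 0.47. The calls of CG11076, Zyx and CG32017 held without any single library, while that of PlexA was lost without Oregon 4, T2L 5, Oregon 6 or T2L 6 and that of apolpp without any of the 6. Scaling on the genes of 2R, 3L and 3R alone gave 11 chromosome 4 genes higher and 0 lower. Both comparisons use the Oregon libraries, so their values stand side by side and neither is a check of the other.

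The levels in T2L were intermediate for many members. For all 9 members called higher in C2L, the T2L mean lay between the Oregon and C2L means. These 9 were picked for high C2L values in the same libraries. A T2L mean below that of C2L is thus partly set by the choice, and the count carries no test. PlexA stood at 490.3, 536 and 549 CPM in T2L, above all Oregon and below all C2L libraries. CG11076 stood at 97.8, 108 and 103 CPM, likewise between the 2 groups without overlap. In T2L against C2L, 4 members of the stretch fell, toy by 0.52, PlexA by 0.47, Arf4 by 0.44 and CG11076 by 0.42 on the log2 scale, with edgeR adjusted p-values of 0.0342, 0.0378, 0.0283 and 0.0116. The calls of toy and PlexA were each lost without any of 5 libraries and that of Arf4 without any of 3, and scaling on 2R, 3L and 3R ended those of toy and PlexA. With batch as a block CaMKII, Cals and CG11155 fell as well (adjusted p = 0.00349, 0.00633 and 0.0285). CG32017, at 344, 383 and 362 CPM in T2L and -0.14 on the log2 scale against C2L, was not called.

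**Figure D3:**
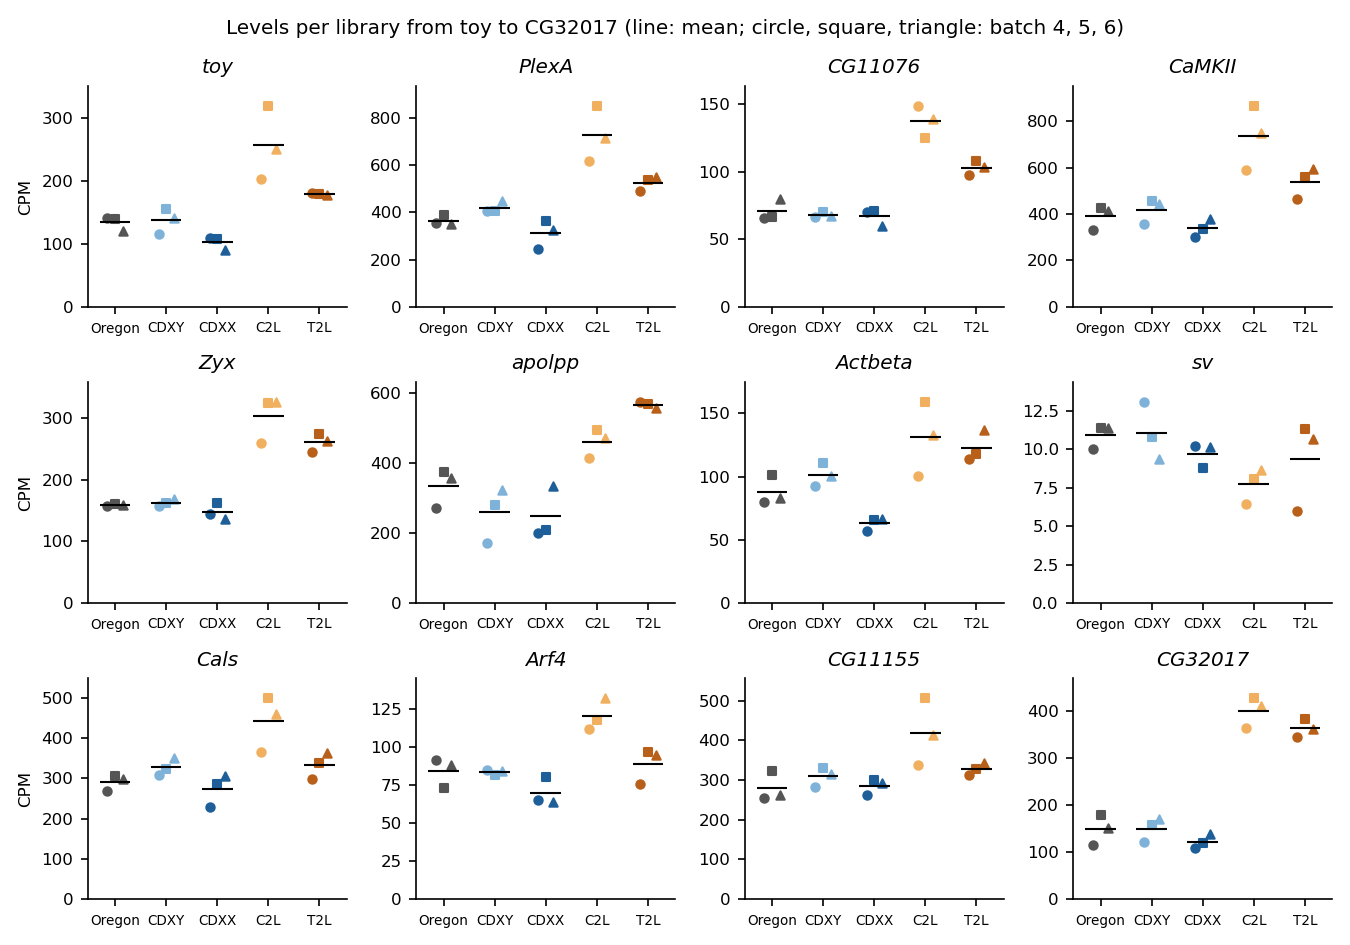
CPM per library of the 12 members from toy to CG32017 in the 5 groups, with group means as lines and batches as symbols. Most genes show C2L highest and T2L next, above Oregon, CDXY and CDXX. For CG11076 the means in that order are 138, 103, 70.7, 68.1 and 67.1 CPM, while apolpp is highest in T2L and sv is lowest in C2L. In 5 of the 12 members all CDXX libraries lie below all CDXY libraries, as they do in 26 of the 71 other chromosome 4 members.

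A comparison that shares no library with C2L against Oregon is T2L against CDXX, which was added after the data were seen and joins brains of the same age, day 8. In it 25 of the 83 genes were higher and 5 lower, or 30.1% and 6.02%, where 19.6% of all genes tested were higher and 18.0% lower, 37.6% in all. On the arms 2R, 3L and 3R 12.7% were higher and 23.6% called either way. Of the 12 members of the stretch 9 were higher, with a median log2 fold change of 0.71 and batch medians of 0.68, 0.67 and 0.75. In runs of 10 neighbouring genes, the most called higher was 8 on chromosome 4 and also 8 on 2R. It was 10 on the trisomic arm 2L, 7 on 3L, 6 on 3R and 4 on the X, so such a run was not particular to chromosome 4. CG32017 (1.58 ± 0.16, adjusted p = 2.56e-05), apolpp (1.20 ± 0.23, adjusted p = 0.00154) and Actbeta (0.96 ± 0.15, adjusted p = 0.000374) had the largest changes of the stretch in edgeR. CDXX itself had a median of -0.21 against Oregon over the stretch, and Actbeta was called lower there (-0.48, edgeR adjusted p = 0.0279). That call was lost without CDXX 4 or Oregon 5 and with factors from 2R, 3L and 3R. Outside the stretch RhoGAP102A was higher by 2.25 and Sox102F by 1.02, while bt, sphinx and CG1674 were lower, at -1.38, -1.08 and -1.01. In apolpp the T2L libraries lay at 574, 569 and 556 CPM and the CDXX libraries at 201, 207 and 333 CPM. Of 8 fat body markers 1 was higher in this comparison, FASN1, which lies on the trisomic arm 2L and at 619 ± 2.41 CPM in T2L (SD, n = 3) made up most of the list's summed 664 to 683 CPM, and 1 was lower, Lsd-1. The list's median log2 fold change was -0.73, and the part of fat body RNA in the apolpp result was not tested.

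The other added comparison, C2L against CDXY, joins the controls at day 5. In it 10 of the 83 genes changed, 7 higher and 3 lower, where 2.74% of all genes were called, 1.4% higher and 1.34% lower. All 7 genes that were higher lie in the stretch, led by CG32017 at 1.42 ± 0.16 (edgeR adjusted p = 0.000218), and the median of the stretch was 0.80. The stretch was chosen for high values in these same C2L libraries. Its counts here are thus partly set by the choice and are no check of C2L against Oregon. In CDXY against Oregon no chromosome 4 gene was called by edgeR, where 0.857% of all genes were, 0.323% higher and 0.534% lower. An unadjusted edgeR p under 0.05 was found for 6 of 83, or 7.23%, below the 11.4% of all genes tested and the 10.6% on 2R, 3L and 3R. DESeq2 called 1, Rnf11, with a log2 fold change of 0.45 (adjusted p = 0.0108). The median of the stretch there was 0.04. Its median in CDXX against Oregon was -0.21.

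Beside the genes that rose, 3 members fell in C2L against Oregon, all before toy. The long noncoding RNA gene sphinx (lncRNA:sphinx), a young gene that arose by retroposition and is known for its part in male courtship, borders the stretch on its left (975168 to 977261, plus strand). It stood at 6.39, 6.51 and 10.3 CPM in Oregon and at 0.370, 0.733 and 0.801 CPM in C2L, where it had 10 to 20 counted reads per library. All C2L libraries lay far below all others, with a log2 fold change of -3.60 ± 0.29 against Oregon (edgeR adjusted p = 1.8e-05). T2L libraries were intermediate at 3.85, 4.05 and 4.87 CPM, so that sphinx was 2.74 ± 0.29 higher in T2L than in C2L (edgeR adjusted p = 0.000235). Of its exonic bases 39.5% lie opposite fuss, which itself was at 8.91 ± 1.24 CPM in Oregon and 6.73 ± 1.62 CPM in C2L (SD, n = 3) and was not called.

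CG31999 and yellow-h lie next to each other far from the stretch. CG31999 (215009 to 227748, minus strand) stood at 35.5, 41.0 and 38.8 CPM in Oregon and at 11.7, 16.2 and 16.2 CPM in C2L. The groups did not overlap, and the fall was 1.38 ± 0.16 on the log2 scale (edgeR adjusted p = 0.000362). The gene yellow-h, of the yellow family of secreted proteins (227922 to 230428, plus strand), had 1.58 ± 0.605 CPM in Oregon and 0.218 ± 0.0796 CPM in C2L (SD, n = 3), where it rested on 4 to 8 counted reads per library. Its log2 fold change was -2.83 ± 0.45 (edgeR adjusted p = 0.00354), and 12.1% of its exonic bases lie opposite an antisense RNA gene.

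Trisomy of X was compared with its attached-X control in CDXX against CDXY. Here more chromosome 4 genes fell than rose, and 13 of the genes that fell belong to the lists of transcription factors and of guidance and signalling genes. Of the 83 genes 24 fell and 6 rose, or 28.9% and 7.23%, where 20.8% of all genes tested were lower, 23.1% higher and 43.9% called either way. The share lower on the arms 2R, 3L and 3R was 24.3%, near that of chromosome 4, and the share higher there was 15.7%. The median log2 fold change was -0.19 on chromosome 4 and -0.07 on those arms, a gap of -0.12 that was -0.12, -0.08 and -0.06 within batches 4, 5 and 6. With scaling on those arms alone the split was 10 higher and 20 lower.

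**Figure D4:**
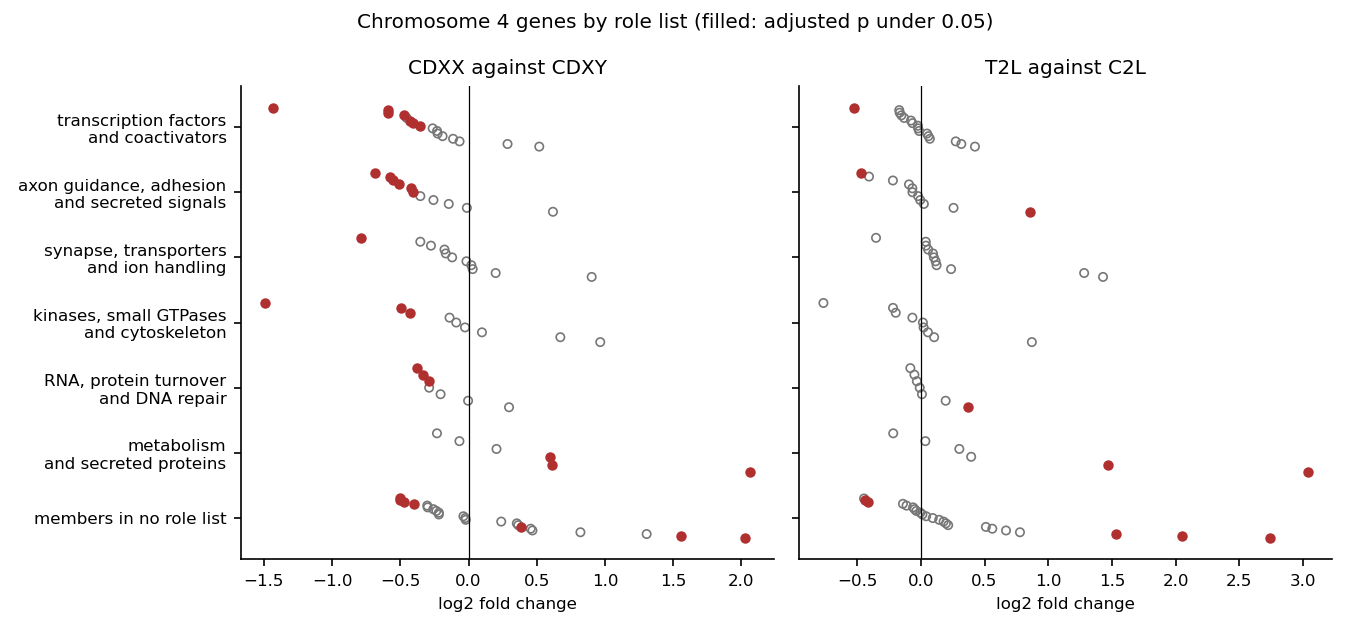
Log2 fold changes of the 83 genes by role list in CDXX against CDXY (left) and T2L against C2L (right), filled where adjusted p was under 0.05. On the left 7 of 16 transcription factor genes and 6 of 11 guidance genes are called lower and 0 higher, and 3 of 6 metabolism genes are called higher. In that comparison 20.8% of all genes tested were lower and 23.1% higher.

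Among the 16 transcription factors and coactivators, 7 fell (toy, Sox102F, zfh2, onecut, NfI, lgs and Hcf), 0 rose, and the list's median was -0.31. Sox102F, a SoxD factor of neurons (800436 to 834393, minus strand), stood at 83.8, 109.7 and 101 CPM in CDXY and at 31.7, 55.2 and 22.2 CPM in CDXX. The groups were apart, and the fall was 1.43 ± 0.32 on the log2 scale (edgeR adjusted p = 0.00381). It held without any single library.

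The homeodomain gene onecut had 206, 257 and 250.2 CPM in CDXY and 144, 145 and 184 CPM in CDXX, without overlap, and it fell by 0.59 ± 0.15 (edgeR adjusted p = 0.00833). zfh2, a zinc finger homeodomain gene, also fell by 0.59, but its call was lost without any of 4 libraries and 18.7% of its exonic bases lie opposite Tdg. Hcf, a cofactor of chromatin complexes, fell by 0.41 (edgeR adjusted p = 0.00456), and lgs, the Wnt coactivator legless, by 0.35 (edgeR adjusted p = 0.00668). The calls of NfI at -0.48 and toy at -0.43 were lost without any of 4 and 5 libraries, and that of toy also with factors from 2R, 3L and 3R. ci, the Hedgehog effector, and pan, the Wnt effector, were not called, with log2 fold changes of 0.52 and -0.45. pan, at an edgeR adjusted p of 0.0513, passed with batch as a block (adjusted p = 0.02) and in DESeq2 (adjusted p = 0.0261), and ci passed without CDXY 4 (adjusted p = 0.0358).

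Among the 11 genes of axon guidance, adhesion and secreted signals, 6 fell (PlexA, PlexB, Eph, Ephrin, Actbeta and dpr7), 0 rose, and the median was -0.41. Both partners of the ephrin pair were lower, the receptor gene Eph by 0.41 and the ligand gene Ephrin by 0.56 on the log2 scale (edgeR adjusted p = 0.0109 and 0.00565). Actbeta (1077331 to 1084796, minus strand) stood at 92.8, 111 and 100.1 CPM in CDXY and at 57.0, 65.3 and 66.5 CPM in CDXX. The groups were apart, and it fell by 0.68 ± 0.15 (edgeR adjusted p = 0.00388). dpr7, of a family of immunoglobulin proteins in synaptic partner choice, fell by 0.58 and was lost without CDXY 5 (edgeR adjusted p = 0.0125, and 0.0581 without it).

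The plexin genes fell in both copies of the family on the chromosome. PlexB, the receptor for semaphorin 2 (32478 to 43778, minus strand), had 325, 319.8 and 334 CPM in CDXY and 197, 258 and 232 CPM in CDXX and fell by 0.51 ± 0.11 (edgeR adjusted p = 0.00324). PlexA fell by 0.42 and was lost without any of 3 libraries and with factors from 2R, 3L and 3R. The pseudogenes CR32011, CR32010 and CR32009, which lie beside PlexB, fell by 0.47 to 0.51. Over the 15 libraries their ratios to PlexB were 0.698 to 0.753, 0.684 to 0.771 and 0.520 to 0.633, so these 4 calls are not independent of each other.

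Counts in the other lists stand beside 20.8% of all genes tested and 28.9% of chromosome 4 genes that were lower in CDXX against CDXY. Of 9 genes for kinases, small GTPases and the cytoskeleton 3 fell, of which RhoGAP102A (254997 to 265574, plus strand) fell most on the chromosome. It stood at 4.92, 5.28 and 8.26 CPM in CDXY and at 2.04, 1.68 and 2.83 CPM in CDXX, where it had 35 to 75 counted reads per library. The groups did not overlap, and the fall was 1.49 ± 0.29 on the log2 scale (edgeR adjusted p = 0.00197). Asator, a tau-tubulin kinase, fell by 0.50 and Dyrk3 by 0.43 (edgeR adjusted p = 0.00696 and 0.0191), and the latter was lost without CDXX 4 or CDXY 5.

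Beside the 20.8% of all genes tested that were lower, 1 of 11 genes of synapses, transporters and ion handling fell. This was Cadps, which primes dense-core vesicles for release. It had 363 to 422 CPM in CDXY and 209 to 239 CPM in CDXX, a log2 fold change of -0.79 ± 0.28 (edgeR adjusted p = 0.0376) that was lost without any of 5 libraries and with factors from 2R, 3L and 3R. Of 7 genes of RNA, protein turnover and DNA repair 3 fell, gw by 0.34, 4E-T, a translational repressor, by 0.38 and Rad23, a proteasome shuttle, by 0.29. Rad23, at an edgeR adjusted p of 0.0499, was lost without any of 5 libraries and with those factors.

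The 6 genes that rose in CDXX against CDXY were CG1674, yellow-h, CG31999, CG1909, lncRNA:CR44024 and asRNA:CR44029, none of them in the lists of transcription factors or guidance genes. CG1674 (230730 to 245903, plus strand) stood at 9.49, 7.45 and 10.2 CPM in CDXY and at 34.7, 50.7 and 25.3 CPM in CDXX. All CDXX libraries were above all others of the series, and the rise was 2.03 ± 0.22 on the log2 scale, 4.07-fold (edgeR adjusted p = 0.00013).

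CG31999, yellow-h and CG1674 are neighbours among the members, and all 3 were higher in both trisomies against their controls. yellow-h had 0.532 to 1.11 CPM in CDXY and 2.07 to 4.17 CPM in CDXX, a log2 fold change of 2.06 (edgeR adjusted p = 0.00212). CG31999 had 29.3 ± 4.90 CPM in CDXY and 44.4 ± 4.14 CPM in CDXX, a log2 fold change of 0.60 (edgeR adjusted p = 0.00984). The long noncoding RNA gene CR44024 (lncRNA:CR44024) was spread widely in CDXX, at 87.8, 53.8 and 158 CPM, against 22.1, 36.0 and 43.7 CPM in CDXY, with a log2 fold change of 1.56 ± 0.35 (edgeR adjusted p = 0.00414). CG1909 rose by 0.61 (edgeR adjusted p = 0.00612). asRNA:CR44029 rose by 0.38 (edgeR adjusted p = 0.0449) and was lost without any of 4 libraries.

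**Figure D5:**
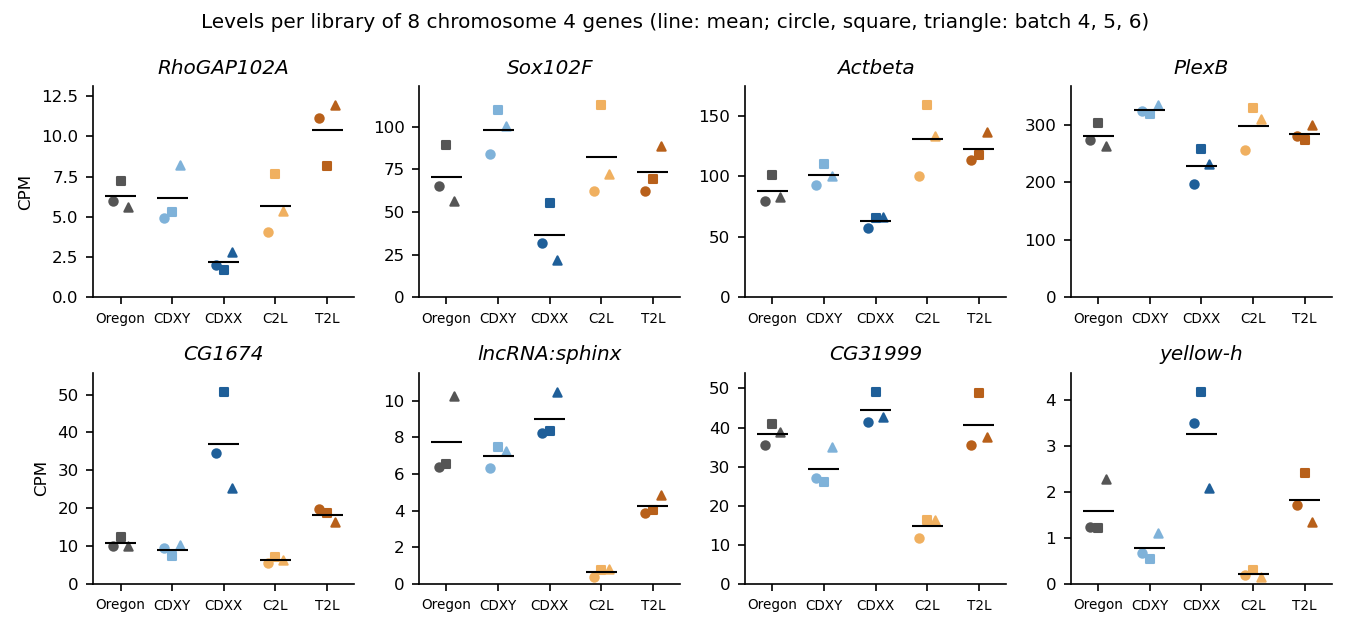
CPM per library of RhoGAP102A, Sox102F, Actbeta, PlexB, CG1674, lncRNA:sphinx, CG31999 and yellow-h in the 5 groups, with group means as lines and batches as symbols. CDXX is lowest in the first 4 genes and highest in CG1674 at 25.3 to 50.7 CPM, and C2L is lowest in the last 3, as for sphinx at 0.370 to 0.801 CPM.

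Other signs of tissue and stage moved with this comparison. Of 20 ecdysone stage genes 12 were lower and 4 higher in CDXX against CDXY, of 14 muscle genes 8 were higher and 1 lower, and of 12 glial genes 4 were higher and 1 lower, with summed glial levels of 2670 to 2700 CPM in CDXX and 1440 to 1680 CPM in CDXY. Of 12 hemocyte genes 4 were higher, and of 6 salivary gland genes 5 were lower. Of 14 neuronal genes 2 were higher, of 10 neuroblast genes 1 was higher and 1 lower, and of 8 fat body genes 1 was higher. Of all genes tested, 23.1% were higher and 20.8% lower. No marker of these lists was at 0 in any group. Their part in the changes of the chromosome 4 genes was not tested. bt was at 9.97, 30.2 and 23.3 CPM in CDXX and at 6.20 to 10.4 CPM in Oregon, with a log2 fold change of 1.30 (edgeR adjusted p = 0.0316) that was lost without any of 4 libraries, and summed muscle markers were 752 to 1340 CPM in CDXX and 752 to 775 CPM in Oregon.

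In T2L against C2L, trisomy of 2L against its control, 11 of the 83 genes changed, 7 higher and 4 lower. That is 13.3%, where 15.7% of all genes tested and 8.08% of those on 2R, 3L and 3R were called. With scaling on those arms alone 9 were higher and 2 lower. The chromosome's median minus that of those arms was 0.10, and within batches 4, 5 and 6 it was 0.21, -0.04 and 0.09, so the sign was not the same in every batch. The 4 that fell are those of the stretch given above, and 0 of the 64 members before toy fell.

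The genes that rose were sphinx, yellow-h, CG31997, CG1674, CG31999, mav and Rnf11. In 3 of them the C2L level had been lower than that of Oregon in the test. CG31999 stood at 35.5, 48.8 and 37.6 CPM in T2L and at 11.7 to 16.2 CPM in C2L, without overlap, and was 1.47 ± 0.16 higher (edgeR adjusted p = 0.000324), while T2L against Oregon was 0.08 and not called. yellow-h showed the same order, at 1.82 ± 0.540 CPM in T2L and 0.218 CPM in C2L, and rose by 3.04 on the log2 scale (edgeR adjusted p = 0.00124) with 0.21 against Oregon.

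CG1674 rose from 6.32 ± 0.890 CPM in C2L to 18.3 ± 1.64 CPM in T2L (SD, n = 3), by 1.53 ± 0.22 on the log2 scale (edgeR adjusted p = 0.00106). CG31997 rose by 2.05 and mav, a ligand of the TGF-beta family, by 0.86, and both calls were lost on leaving out single libraries, of mav without any of the 6. Rnf11, which encodes a RING finger protein, rose by 0.37 and was lost without any of 5 libraries, and 56.1% of its exonic bases lie opposite PMCA. Gat, the GABA transporter of glia, did not pass at 1.43 ± 0.51, with 22.7 to 76.7 CPM in C2L and 77.1 to 190.3 CPM in T2L (edgeR adjusted p = 0.08). In DESeq2 it passed (adjusted p = 0.017). Of 12 glial markers 3 were higher in this comparison (median 0.55), of 14 muscle markers 2 were higher (median 1.29), of 12 hemocyte markers 1 was higher and of 8 fat body markers 2 were lower (median -1.45). Of 20 ecdysone stage genes 0 were called by edgeR, with a median of -0.26. Beside these marker counts, 11.6% of all genes tested were higher and 4.05% lower. Their part in the result was not tested.

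Whether the trisomies differed in their response was tested by the difference of both fold changes. Of the 83 genes 9 differed, 1 more upward in CDXX and 8 more downward, where 22.3% of all genes tested and 10.2% of those on 2R, 3L and 3R did. With batch as a block 23 were called, and without C2L 5 or CDXX 5 the counts were 21 and 17, and without CDXY 5 or T2L 6 they were 4. RhoGAP102A differed by -2.36 ± 0.41 (edgeR adjusted p = 0.00179), with 11.2, 8.17 and 11.9 CPM in T2L and 4.03 to 7.68 CPM in C2L, above without overlap, though T2L against C2L alone was 0.87 and did not pass (edgeR adjusted p = 0.0564). In T2L against CDXX it was 2.25 ± 0.30 higher (edgeR adjusted p = 0.000114). sphinx, CG31999, dpr7, NfI, Rnf11, CR32009, CR32010 and ND-49 made up the rest. Of these, sphinx, CG31999 and Rnf11 were also called lower in C2L than in CDXY, so their values include a difference between the control stocks.

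CDXX against Oregon gave 18 of the 83 genes called, 5 higher and 13 lower, or 21.7%, where 35.3% of all genes tested and 30.3% of those on 2R, 3L and 3R were called. The direction rested on the scaling, since factors from 2R, 3L and 3R gave 11 higher and 1 lower. Without Oregon 4, CDXX 4 or Oregon 5 the counts were 10, 5 and 5. RhoGAP102A (-1.52, adjusted p = 0.00244), CG1674 (1.77, adjusted p = 0.000253) and asRNA:CR44029 (0.55, adjusted p = 0.0116) passed in edgeR without any single library and under each alternative setting. asRNA:CR44029 shares 13.1% of its exonic bases with the opposite strand of unc-13. The fit over all 5 genotypes called 38 of the 83 genes, or 45.8%, where 51.3% of all genes and 40.3% of those on 2R, 3L and 3R were called.

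Factors known for chromatin of chromosome 4 lie on other arms. Of all genes tested in CDXX against CDXY, 20.8% were lower and 23.1% higher. In CDXX against CDXY 9 of 15 were lower, namely egg, Su(var)3-7, HP1c, HIPP1, ADD1, Kdm4A, Su(var)2-HP2, Lhr and the gene for heterochromatin protein 1a, and 2 higher, G9a and Hmr, which are on the X. G9a was at 45.1 ± 1.11 CPM in CDXY, 75.7 ± 9.24 CPM in CDXX and 84.1 ± 2.25 CPM in Oregon (SD, n = 3), and it was lower in CDXY than in Oregon (-0.90, edgeR adjusted p = 0.000957) and not called in CDXX against Oregon. egg fell by 0.34 on the log2 scale, to 65.8 ± 0.972 CPM in CDXX (SD, n = 3, edgeR adjusted p = 0.0015). Pof, which coats the chromosome, did not pass, at 28.8 ± 2.62 and 28.0 ± 2.63 CPM. In T2L against C2L egg fell by 0.29, HP1c by 0.40 and ADD1 by 0.34, and the gene for heterochromatin protein 1a, on the trisomic arm 2L, rose from 498 ± 44.1 to 668 ± 66.6 CPM, by 0.43 (edgeR adjusted p = 0.0176). Of all genes tested in T2L against C2L, 4.05% were lower and 11.6% higher. In C2L against Oregon 0 of the 15 passed in edgeR, near the 2.14% of all genes, with a median log2 fold change of 0.07.

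Of 26 genes elsewhere in the genome that work with the plexin, Hedgehog, Activin and Wnt genes of chromosome 4, 5 rose and 9 fell in CDXX against CDXY, where 23.1% of all genes rose and 20.8% fell. Of the 5 that rose, Nrg, fu and Smox lie on the trisomic X. The semaphorin genes Sema1a, Sema2a and Sema2b, whose products bind the plexins, were among those that fell, Sema1a by 0.62, Sema2a by 0.38 and Sema2b by 0.72 on the log2 scale. The other semaphorin genes of the list, Sema1b at -0.16 and Sema5c at 0.58, were not called (edgeR adjusted p = 0.24 and 0.151). The Activin receptor gene wit fell by 0.84, and daw, another Activin-type ligand gene, rose by 2.22 (edgeR adjusted p = 0.00353 and 0.00246). In T2L against C2L 1 rose, smo on 2L, and 1 fell, fu on the X, where 11.6% of all genes rose and 4.05% fell.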

How the data were processed

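Each library held polyadenylated RNA of 3 brains, prepared with NEBNext kits per the labels' protocols. The deposited values are raw counts of reads for 8990 genes in 15 libraries. Per the submitters' processing notes the tools were Trim Galore, STAR 2.7.10a and featureCounts, and the genome was dm6. The strand setting, multiple matches and the gene filter are not given in the sources used here.

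Coordinates and symbols came from the Ensembl annotation of dm6 by gene identifier, with 51 genes unmatched. Tests were edgeR 4.0.16 quasi-likelihood F tests in R 4.3.3 over all 15 libraries with 1 mean per group, TMM scaling and filterByExpr (8981 genes tested). P-values are two-sided, adjusted by Benjamini and Hochberg over all genes, and called under 0.05. CPM uses TMM-scaled library sizes. Libraries of 22.9 to 28.3 M counts are precise for most members; those under about 1 CPM rest on few reads.

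Members, lists and rules were chosen with earlier results of these data known. Named genes were, per main comparison, up to 8 rises and 8 falls of at least 5 CPM, genes called in both, up to 4 each way in each other comparison, up to 3 of lowest p per role list, the highest and lowest levels per kb, and called chromatin factors. C2L against CDXY, T2L against CDXX and the stretch from toy to CG32017 were chosen after the data were seen.

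Per the series design, replicates are days, so the batch labels were taken as pairing libraries. Between libraries of the same batch, deviations from the group mean correlated with a median of 0.129, and 16 of 30 pairs exceeded 0.1. Between different batches the median was -0.066. Replicates differed far beyond counting noise. Nothing names separate parents, so p-values reflect only how these pools and days vary. Scripts were tested on simulated data. Alternatives were DESeq2 1.42.0, its size factors, factors from 2R, 3L and 3R, other count filters, only the groups compared, the replicate block, and leaving out each library.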

Additional observations from a re-analysis of the deposited data

Results flagged for a closer look

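In 9 chromosome 4 genes the trisomies' fold changes against their controls differed in the test of the difference (edgeR adjusted p under 0.05). That is 10.8% of the 83, near the 10.2% on 2R, 3L and 3R and below the 22.3% of all genes tested. The difference is the log2 fold change in CDXX against CDXY minus that in T2L against C2L. The difference was -2.38 for lncRNA:sphinx, which was 0.36 in CDXX against CDXY and 2.74 in T2L against C2L, and -2.36 for RhoGAP102A, at -1.49 and 0.87. It was -0.87 for CG31999, at 0.60 and 1.47. For dpr7 it was -0.83, at -0.58 and 0.26, and for NfI -0.79, at -0.48 and 0.32. Rnf11 differed by -0.57, at -0.21 and 0.37. The pseudogenes CR32010 and CR32009, which follow PlexB, differed by -0.47 each. ND-49 differed by 0.42, at 0.20 and -0.22, and neither of its fold changes passed alone. In every leave-one-out fit the calls of sphinx, RhoGAP102A, CG31999 and Rnf11 held, 4 of the 9. The controls themselves differed at sphinx, CG31999 and Rnf11, by -3.46, -0.995 and -0.70 on the log2 scale in C2L against CDXY. The edgeR adjusted p-values there were 2.76e-05, 0.00345 and 0.0024. At these genes a difference between the control stocks and one between the trisomies cannot be told apart.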

How the results depend on the processing

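Leaving out 1 library gave 21 to 36 chromosome 4 genes called in CDXX against CDXY, 5 to 12 in T2L against C2L, 0 in CDXY against Oregon, 9 to 13 in C2L against Oregon, 5 to 17 in CDXX against Oregon, 3 to 6 in T2L against Oregon (3 without Oregon 4, Oregon 6, T2L 5 or T2L 6), 8 to 10 in C2L against CDXY, 18 to 29 in T2L against CDXX (19 without CDXX 4 and 18 without T2L 6), 4 to 21 for the difference and 26 to 40 over all genotypes. For T2L against C2L it gave 5 without C2L 6, 6 without T2L 4 and 7 without C2L 5, T2L 5 or T2L 6. The gap of the medians to 2R, 3L and 3R ranged from -0.186 to -0.0797 in CDXX against CDXY and from 0.0153 to 0.147 in T2L against C2L. With only the groups compared, 7 genes were called in each of T2L against C2L, C2L against Oregon and CDXX against Oregon, and 19 in T2L against CDXX. DESeq2 called 1 gene in CDXY against Oregon, 13 in T2L against Oregon and 23 for the difference. The replicate block, which pairs libraries by batch, called 23 for the difference and, beside Arf4 in C2L against Oregon, ended no call of a chromosome 4 gene. It added calls in 8 of the 9 comparisons, such as pan in CDXX against CDXY and Actbeta in C2L against Oregon. The near-zero change of lncRNA:CR44023 in CDXX against CDXY (-0.04) turned to 0.026 with factors from 2R, 3L and 3R, 0.241 without CDXY 5 and 0.164 without CDXX 6, with a leave-one-out range of -0.266 to 0.241; the causes were not tested. In every alternative 20 of 30 calls held in CDXX against CDXY, 5 of 11 in T2L against C2L and 7 of 13 in C2L against Oregon. With 3 libraries a group and a biological coefficient of variation of 24.9%, small changes can be missed, and a gene not called is not shown to be the same.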
